A study of Mus musculus with 12 samples.

Results

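The 51 genes described here encode the proteins that take up, activate, store and oxidize fatty acids, together with regulators of these steps. They were chosen by name from the 54658 gene names of a count table of the mouse left atrium (LA), and all 51 were expressed highly enough to be tested, among 13541 tested genes in all. They were divided by function into uptake and activation (15 genes), beta-oxidation (20 genes), triglyceride storage (8 genes) and regulators (8 genes).

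Cardiomyocytes draw most of their energy from fatty acids. A fatty acid released from lipoproteins or taken up at the cell surface is coupled to coenzyme A, and is then either esterified to triglyceride and kept in a lipid droplet coated by perilipins, or carried into mitochondria by the carnitine palmitoyltransferases and shortened by repeated rounds of beta-oxidation. The nuclear receptors of the PPAR and ERR families and their coactivators of the PGC-1 family set the transcription of many of these genes.

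The 12 libraries came from the LA of 6 control mice with *amHC-rtTA* and 6 iNICD mice with *amHC-rtTA* and *TetO-NICD*, 1 LA per library. The first transgene places the reverse tetracycline transactivator under a cardiomyocyte promoter, and in its presence doxycycline switches on the intracellular domain of Notch1 (NICD) from the second. Both groups were littermates on a mixed background, received doxycycline chow for 3 weeks without washout from an age of 2 to 3 months, and held 2 males among the controls and 3 among the iNICD mice. All mice carried the transactivator and received doxycycline, so neither agent separates the groups, and the controls did not carry *TetO-NICD*, so the presence of that transgene and its induction cannot be told apart. The comparison asks how the genes of fatty acid metabolism stand in the atrium after Notch activation in adult cardiomyocytes.

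The reads counted on genes numbered 21432632 to 27182038 per library. Values are normalized CPM, a gene's reads relative to all counted reads of its library after scaling by the trimmed mean of M values (TMM), and differences are log2 fold changes of iNICD over control from edgeR's quasi-likelihood test, adjusted by the Benjamini-Hochberg method over all tested genes, with a threshold of 0.05. *Notch1*, whose sequence the transgene shares, lay between 108 and 131 normalized CPM in the controls and between 2975 and 4077 in the iNICD libraries. On the first principal component of all genes, which held 32.6% of the variance, control replicate 5 stood at -77.4 and the other controls between -20.2 and 7.98, and the counts of called genes were also taken without it. The summed level of 10 cardiomyocyte markers ran from 68686 to 84835 normalized CPM in controls and from 59317 to 70041 in iNICD libraries. Of these markers 3 were lower, *Tnnt2*, *Myl7* and *Sln*, where 1.34% of all tested genes were lower. The others were not called, among them *Myh6*, the most abundant, at -0.03 on the log2 scale, and the median of the 10 was -0.25. In bulk tissue, fewer cells of a type and less RNA per cell cannot be told apart.

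At baseline the pathway covered a wide range of levels per length, given as normalized CPM per kilobase of exon. The highest control means were those of *Fabp3*, the heart fatty acid-binding protein, at 391, *Acadl*, the long-chain acyl-CoA dehydrogenase, at 378, *Acaa2*, the last enzyme of the mitochondrial spiral, at 322, and *Cd36*, the membrane carrier of long-chain fatty acids, at 272. The lowest were *Acaca* at 0.589 and *Acot1* at 0.584. Among the acyl-CoA synthetases, *Acsl1* stood at 41.2, against 7.19 for *Acsl4*, 6.60 for *Acsl5* and 1.89 for *Acsl3*. Of the acetyl-CoA carboxylases, *Acacb*, whose malonyl-CoA product restrains carnitine palmitoyltransferase at the mitochondrion, stood at 38.3 and the cytosolic *Acaca* at 0.589. In storage, *Pnpla2* (adipose triglyceride lipase) led with 74.2, followed by *Plin4* with 60.03 and *Fitm1* with 48.4, and among the nuclear receptors *Esrra*, at 54.5, was the highest. The deposited length of *Esrra* (2539 bases) and of *Cpt1a* (4300 bases) is shorter than the union of their exons, over which *Esrra* would stand at 31.5 and *Cpt1a* at 13.9 in place of 24.7. For 48 of the 51 genes the length is the union of all annotated exons, not that of the transcript expressed. The ranking between genes is therefore uncertain.

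**Figure D1:**
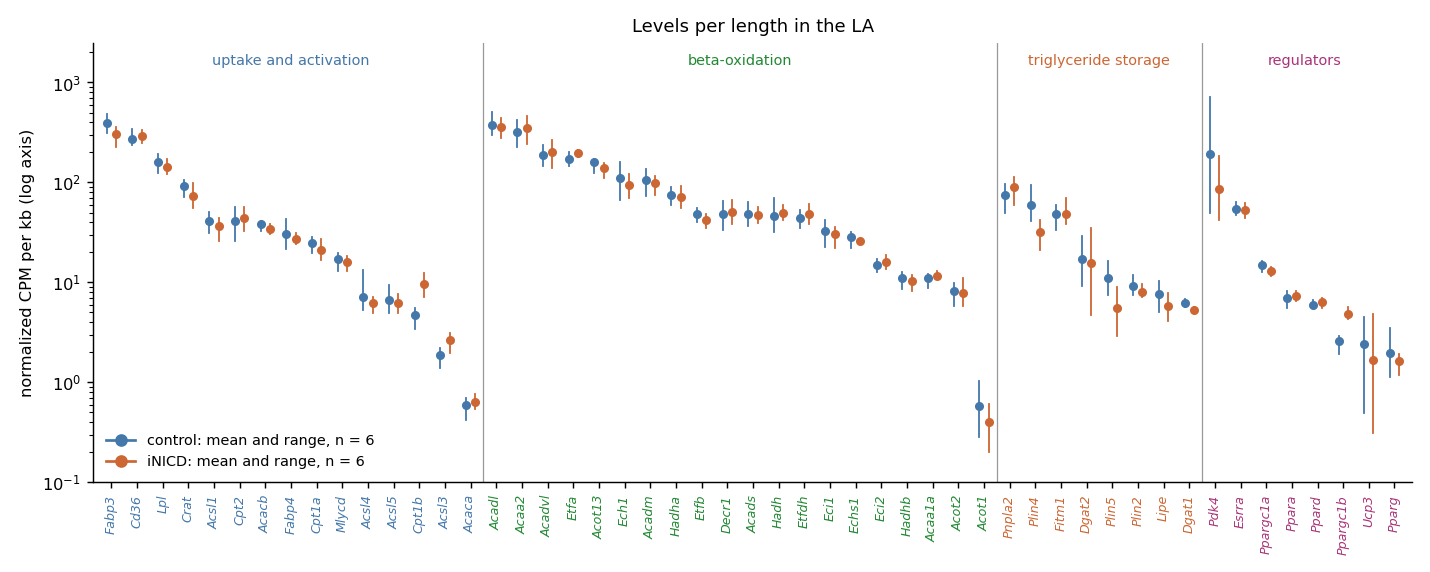
Normalized CPM per kilobase of exon on a log axis for the 51 genes, ordered within each role by the control mean, with the mean (point) and the range (line) of 6 control and 6 iNICD libraries. *Cpt1b* and *Ppargc1b* are shifted upwards in iNICD with ranges that do not touch the control ranges, and *Pdk4* has the widest control range.

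Most of the pathway did not pass the test in iNICD libraries. *Cpt1b* and *Ppargc1b* rose, 2 of the 51 genes where 2.78% of all tested genes were higher, and *Plin4* fell, 1 of 51 where 1.34% of all tested genes were lower. At an unadjusted p under 0.05, 4 of the genes were higher (9.32% of all tested genes) and 7 lower (8.09%). The groups did not overlap for 2 genes with iNICD above (2.58% of all tested genes) and for 1 with iNICD below (1.25%). The log2 fold change was above 0 for 18 genes and below 0 for 33, with a median of -0.09 against -0.0061 over all tested genes, and it ran from -1.16 for *Pdk4* to 1.04 for *Cpt1b*. Without control replicate 5 the same 3 genes passed, where 486 of all 13499 genes tested in that fit were higher and 310 lower. In that fit 21 of the 51 genes were above 0. The sign of 7 genes that did not pass turned without that library, those of *Acsl4*, *Acsl5*, *Acadl*, *Acaa1a*, *Acot2*, *Fitm1* and *Esrra*, all lying between -0.08 and 0.05 without it. With so few members called, these counts do not set the genes apart from the background.

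**Figure D2:**
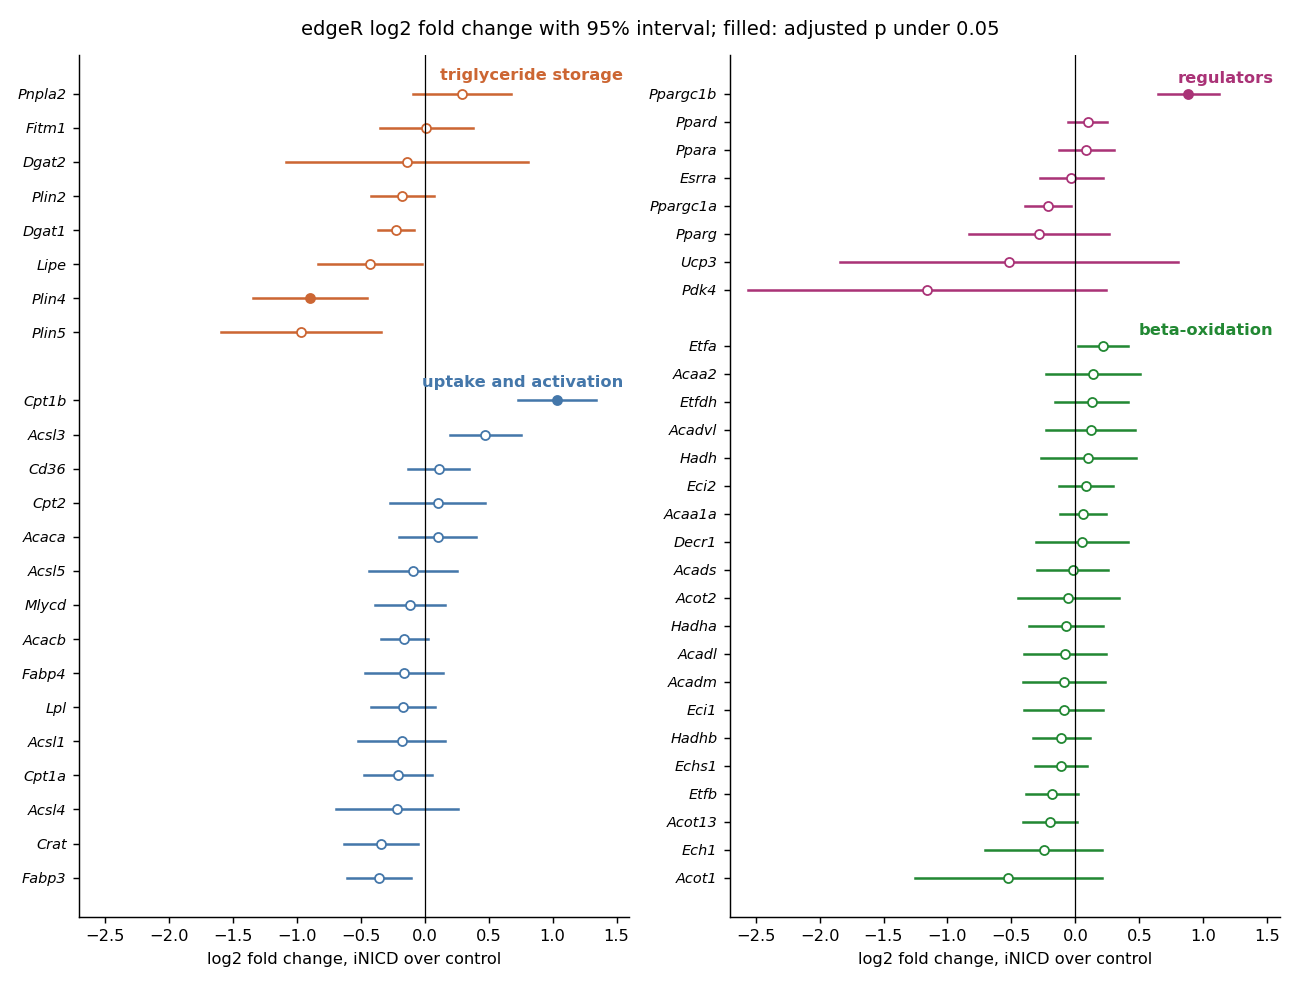
Log2 fold change of iNICD over control with its 95% interval for each of the 51 genes, by role, with filled points for an adjusted p under 0.05. *Cpt1b* and *Ppargc1b* lie at 1.04 and 0.88, *Plin4* at -0.89, and the intervals of 19 of the 20 beta-oxidation genes hold 0.

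Of the 15 genes that bring fatty acids into the cell, activate them and admit them to mitochondria, *Cpt1b* rose and none of the others passed. *Cpt1b* encodes the muscle form of carnitine palmitoyltransferase 1, which transfers the acyl group to carnitine at the outer mitochondrial membrane. In control replicates 1 to 6 its level was 14.1, 11.4, 18.8, 17.5, 18.2 and 15.04 normalized CPM, and in iNICD replicates 1 to 6 it was 29.3, 24.3, 32.9, 41.7, 32.8 and 33.7. No iNICD library overlapped the controls, and control replicate 2 and iNICD replicate 2 were the lowest of their groups. Mean levels were 15.8 ± 2.83 in controls and 32.5 ± 5.73 in iNICD (SD, n = 6 per group). On the log2 scale the difference was 1.04 (SE 0.14, edgeR adjusted p = 8.71e-04), and the two-sided exact permutation test gave p = 0.00216, the smallest it allows for 6 against 6 libraries. The gene passed with each of the 12 libraries left out in turn, with log2 fold changes between 0.95 and 1.11.

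Most exon bases of *Cpt1b* are shared with another annotated gene. In GRCm38 (mm10) the gene spans 89416405 to 89425863 on the minus strand of chromosome 15, and 2744 of its 3372 exon bases, 81.4%, also belong on the same strand to Gm44502, a transcript that reads through from the neighbouring gene *Chkb*. Gm44502 had 0 counts in all 12 libraries. The study's methods describe counting of unambiguous reads, and if the table was counted so, reads over the shared bases were left out. The bases of *Cpt1b* outside Gm44502 number 628, of which 448 form 1 stretch next to the first exon and 85 form an exon from 89422125 to 89422209. Where the reads of *Cpt1b* lie was not tested, and the level per length of *Cpt1b*, 4.70 in controls, cannot be set beside that of *Cpt1a*, the liver form. *Chkb* itself averaged 4.17 ± 0.944 normalized CPM in the control group and 5.62 ± 0.947 in the iNICD group (SD, n = 6 each), and its log2 fold change of 0.43 did not pass (edgeR adjusted p = 0.197).

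The remaining steps around the carnitine shuttle did not pass. *Cpt1a* had a log2 fold change of -0.21 and *Cpt2*, which returns the acyl group to coenzyme A inside the mitochondrion, one of 0.10. *Crat*, which buffers acetyl-CoA as acetylcarnitine, had control values of 448, 388, 553, 493, 512 and 573 normalized CPM in replicates 1 to 6 and iNICD values of 340, 301, 363, 528, 379 and 426. The iNICD libraries of replicates 4 and 6 lay among the controls and the other 4 below all of them, with a log2 fold change of -0.34 (SE 0.13, edgeR adjusted p = 0.197, exact permutation p = 0.039). *Mlycd*, which removes malonyl-CoA, was at -0.11, *Acaca* at 0.10 and *Acacb* at -0.16.

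Among the fatty acid carriers, *Fabp3* was the nearest to the threshold. Its control values were 310, 259, 351, 297, 323 and 394 normalized CPM in replicates 1 to 6, and its iNICD values 186, 242, 266, 259, 265 and 293. The iNICD values of replicates 1 and 2 were under the whole control range and the others in its lower part, with a log2 fold change of -0.36 (SE 0.12, edgeR adjusted p = 0.12, exact permutation p = 0.0152). It passed with sex as a covariate (adjusted p = 0.0453). *Cd36* had a log2 fold change of 0.11, *Lpl*, the lipoprotein lipase, one of -0.17 and *Fabp4*, the carrier of adipocytes and endothelium, one of -0.16.

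Among the acyl-CoA synthetases, *Acsl3*, a form found at the endoplasmic reticulum and nascent lipid droplets, had control values of 8.40, 8.75, 8.85, 9.64, 6.04 and 7.77 normalized CPM in replicates 1 to 6 and iNICD values of 13.5, 11.9, 12.2, 11.2, 8.57 and 11.5. All iNICD libraries but replicate 5 lay above every control. The log2 fold change was 0.48 (SE 0.13, edgeR adjusted p = 0.0574, exact permutation p = 0.00866), and the gene passed in 7 of 25 alternatives, among them the fit with sex as a covariate (adjusted p = 0.0105). *Acsl1*, the main heart form, was at -0.18, *Acsl4* at -0.22 and *Acsl5* at -0.09, and the latter pair at 0.05 and 0.03 without control replicate 5. *Acsl4* stood at 71.8 normalized CPM in control replicate 5 and between 28.4 and 44.4 in the other controls. The median log2 fold change of the 15 genes was -0.16, and -0.04 without control replicate 5.

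**Figure D3:**
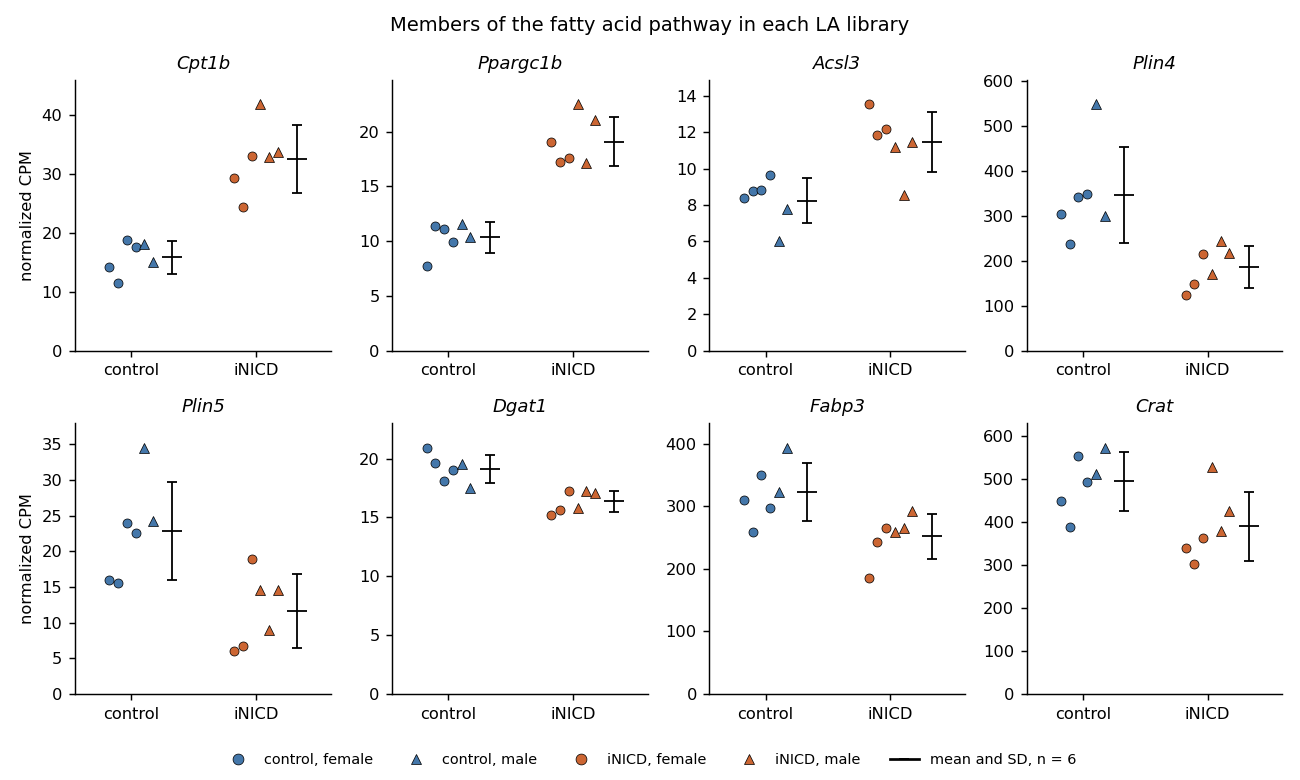
Normalized CPM in each library for 8 of the genes, with circles for female and triangles for male mice and bars for the mean and SD of 6 libraries, on axes that start at 0. *Cpt1b*, *Ppargc1b* and *Dgat1* show groups that do not overlap, and *Plin4* has a control library at 549 above the others.

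None of the 20 beta-oxidation genes passed the test, and 1, *Etfa*, had an unadjusted p under 0.05. The log2 fold changes lay between -0.53 and 0.22 with a median of -0.06, and -0.02 without control replicate 5. The 95% intervals of 19 of the 20 genes stayed within 1 on the log2 scale either way, and those of 17 within 0.5, so that a 2-fold change lay outside the interval of each of these 19 genes. The wider interval was that of *Acot1*, a thioesterase with 19 to 98 counts per library, and reached down to -1.25. No beta-oxidation gene passed in any alternative in which it was tested, 25 for each gene and 24 for *Acot1*.

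The acyl-CoA dehydrogenases, which open each round of oxidation for chains of different length, had log2 fold changes of 0.12 for *Acadvl* (very long chains), -0.08 for *Acadl*, -0.09 for *Acadm* (medium chains) and -0.02 for *Acads* (short chains). *Acadl*, the most abundant of the beta-oxidation genes per length, had control values of 623, 604, 764, 673, 1027 and 862 normalized CPM in replicates 1 to 6 and iNICD values of 557, 587, 749, 876, 772 and 755. The groups overlapped throughout, and the lowest values of both groups came from female libraries. The hydratase and dehydrogenase steps gave -0.07 for *Hadha* and -0.11 for *Hadhb*, the subunits of the trifunctional protein, 0.10 for *Hadh* and -0.11 for *Echs1*. The thiolases *Acaa2*, of mitochondria, and *Acaa1a*, of peroxisomes, were at 0.14 and 0.06.

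The auxiliary enzymes that rearrange the double bonds of unsaturated fatty acids were at -0.25 (*Ech1*), -0.09 (*Eci1*), 0.08 (*Eci2*) and 0.05 (*Decr1*). The thioesterases, which release free fatty acids from coenzyme A, were at -0.53 (*Acot1*), -0.05 (*Acot2*) and -0.20 (*Acot13*). *Acot1* and *Acot2* are near-identical neighbours, so reads shared by both could be lost or split and their values are uncertain.

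The electron transfer flavoprotein and its dehydrogenase hand the electrons of the first step to the respiratory chain. *Etfa*, its alpha subunit, had control values of 282, 268, 295, 295, 368 and 369 normalized CPM in replicates 1 to 6 and iNICD values of 333, 335, 381, 390, 379 and 363. The male controls, replicates 5 and 6, lay among the iNICD libraries and the female controls lay below all of them, with a log2 fold change of 0.22 (SE 0.09, edgeR adjusted p = 0.232, exact permutation p = 0.0346). *Etfb*, the beta subunit, was at -0.18 and *Etfdh*, the dehydrogenase, at 0.13. Of the exon bases of *Etfb*, 58.2% belong on the same strand also to other transcripts.

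Among the 8 genes of lipid droplets and triglyceride turnover, *Plin4* fell, 4 were lower at an unadjusted p under 0.05 (*Plin4*, *Plin5*, *Dgat1* and *Lipe*; 8.09% of all tested genes), and none was higher at that level (9.32%). Without control replicate 5, *Plin4*, *Plin5* and *Dgat1* were lower at that level, as were 1266 of all 13499 genes tested in that fit. The median log2 fold change was -0.20, and -0.23 without control replicate 5. *Plin4* and *Plin5* encode perilipins of lipid droplets, the second of which is typical of oxidative tissue and links droplets to mitochondria. They are neighbours on the minus strand of chromosome 17 of GRCm38, *Plin4* from 56100591 to 56109803 and *Plin5* from 56111601 to 56117596, with 1797 bases between them.

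*Plin4* had control values of 304, 237, 342, 349, 549 and 299.7 normalized CPM in replicates 1 to 6, and iNICD values of 123, 148, 215, 172, 245 and 217. The iNICD libraries lay below all controls except replicate 5, which was above control replicate 2, and control replicate 5 was the highest of all. Mean levels were 347 ± 107 in controls and 187 ± 46.4 in iNICD (SD, n = 6 per group), and the log2 fold change was -0.89 (SE 0.21, edgeR adjusted p = 0.0282, exact permutation p = 0.00433). Without control replicate 5 it was -0.72 (adjusted p = 0.0237). The call was lost without control replicate 3 or 4 or without iNICD replicate 1, 2 or 4, with adjusted p-values from 0.0187 to 0.0714 over the 12 such fits, and the log2 fold change stayed between -0.99 and -0.72.

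*Plin5* had control values of 16.0, 15.6, 24.0, 22.6, 34.5 and 24.3 normalized CPM and iNICD values of 6.05, 6.66, 18.9, 14.6, 8.99 and 14.6 in replicates 1 to 6. Here iNICD replicate 3 lay among the controls and the others below all of them. Mean levels were 22.8 ± 6.92 in controls and 11.6 ± 5.17 in iNICD (SD, n = 6 per group), and the log2 fold change of -0.97 did not pass (SE 0.29, edgeR adjusted p = 0.0877, exact permutation p = 0.0108). It passed with DESeq2 (adjusted p = 0.0173) and with the exact test of edgeR (adjusted p = 0.0229).

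The bases in front of these neighbours are shown because they were the perilipins with the lowest log2 fold changes of the 8 storage genes; *Plin5* was chosen after its values were seen. Both are RefSeq sequences of GRCm38.p6, minus strand, the 250 bases before an annotated start site, for *Plin4* at chr17:56109783-56110032 and for the upstream start of *Plin5* at chr17:56117549-56117798. Capitals mark AGGTCA, the half-site bound by many nuclear receptors, searched on both strands after the data were seen.
Plin4: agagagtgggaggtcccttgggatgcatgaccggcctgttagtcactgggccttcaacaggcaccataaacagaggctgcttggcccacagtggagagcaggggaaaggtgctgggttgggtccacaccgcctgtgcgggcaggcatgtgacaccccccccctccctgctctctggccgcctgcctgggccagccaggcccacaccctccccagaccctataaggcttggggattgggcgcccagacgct
Plin5: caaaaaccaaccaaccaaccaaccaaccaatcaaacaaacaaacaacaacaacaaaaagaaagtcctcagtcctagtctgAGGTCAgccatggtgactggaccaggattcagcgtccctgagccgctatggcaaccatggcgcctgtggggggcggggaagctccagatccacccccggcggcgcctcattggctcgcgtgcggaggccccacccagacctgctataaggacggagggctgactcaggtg
The *Plin5* stretch holds 1 copy, which begins 170 bases before the start site, and the *Plin4* stretch and the stretch before the second annotated start of *Plin5* hold none. The motif stands in 14% of the 32851 RefSeq promoters in the same window. For 41 of the 51 genes the table held 46 promoters, from 250 bases before to 50 bases after a start. TGGGAA, the core that the Notch partner RBPJ binds, stood on either strand in 10 of the 46 (21.7%), each of another gene, against 25.6% of all promoters. The table held no promoter of *Fabp4*, *Lpl*, *Cpt1b*, *Crat*, *Decr1*, *Acaa2*, *Acot13*, *Dgat1*, *Dgat2* or *Ppargc1b*, so *Cpt1b* and *Ppargc1b* were not searched. Those with the motif were *Acaa1a*, *Acaca*, *Acadvl*, *Acsl1*, *Cd36*, *Pdk4*, *Plin2*, *Pnpla2*, *Ppard* and *Pparg*. The exact PPAR element, AGGTCA repeated in the same direction with 1 base between, stood in 0.0396% of all promoters, the exact ERR element TCAAGGTCA in 0.423%, and neither in those of the 41 genes.

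*Dgat1*, which adds the last fatty acid to triglyceride, had control values of 20.9, 19.6, 18.1, 19.0, 19.5 and 17.5 normalized CPM in replicates 1 to 6 and iNICD values of 15.2, 15.6, 17.2, 15.8, 17.2 and 17.1. It was the 1 gene of the 51 with every iNICD library below every control, by a small margin. The log2 fold change was -0.23 (SE 0.06, edgeR adjusted p = 0.0752, exact permutation p = 0.00216). For *Dgat2*, its counterpart, the control values, from 28.6 to 89.6, lay within the range of the iNICD values, from 14.6 to 109. Its log2 fold change was -0.14, and ran from -0.57 to 0.08 with each library left out in turn.

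Among the lipases, *Lipe* (hormone-sensitive lipase) had control values of 36.3, 29.6, 50.8, 51.4, 60.6 and 44.1 normalized CPM and iNICD values of 24.2, 31.1, 46.0, 41.2, 27.0 and 33.4 in replicates 1 to 6. The groups overlapped over most of their ranges, with a log2 fold change of -0.43 (SE 0.19, edgeR adjusted p = 0.266, exact permutation p = 0.0779). *Pnpla2*, which starts lipolysis, lay the other way, with control values of 200, 150, 225, 239, 243 and 288 and iNICD values of 178, 217, 282, 342, 305 and 321. Here 3 of 6 iNICD libraries lay above all controls, and the log2 fold change of 0.29 did not pass (SE 0.18, edgeR adjusted p = 0.42). *Plin2*, the widespread droplet coat protein, was at -0.17 and *Fitm1*, which helps droplets form, at 0.01.

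Several defining adipocyte genes were near the floor in these libraries. The sum of 9 markers of white fat ran from 5.01 to 18.1 normalized CPM in controls and from 2.13 to 27.7 in iNICD libraries, with *Plin1* at 1.076 ± 0.651 in controls and 1.24 ± 1.34 in iNICD and *Adipoq* at 0.972 ± 0.367 and 1.11 ± 1.06 (SD, n = 6 per group). None of the 3 tested white fat markers was called. The sum of 5 brown fat markers was 47.9 in control replicate 5, from 8.15 to 36.8 in the other controls and from 7.71 to 18.2 in iNICD libraries, with *Ucp1* and *Elovl3* at 0 in several libraries. In control replicate 5 *Dio2*, a deiodinase that other tissues also express, made up 38.8 of that sum and *Cidea* 9.03, while *Ucp1* and *Elovl3* were at 0. The 7 epicardial markers all had log2 fold changes below 0, with a median of -0.30, and none was called, their sum running from 243 to 316 normalized CPM in controls and from 150 to 297 in iNICD libraries. Of the 10 endothelial markers 1 was called, *Esam*, higher at 1.46 (SE 0.11, edgeR adjusted p = 5.83e-06), and the median of the 10 was -0.12. No fibroblast, smooth muscle, pericyte or macrophage marker was called. The cardiomyocyte marker sum given above overlapped between the groups, with control replicate 5 the highest and the other controls at most at 74992, and the part of any of these markers in the fall of *Plin4* was not tested.

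Among the 8 regulators, the coactivator *Ppargc1b* rose and no other passed. PGC-1β, its product, drives mitochondrial and fatty acid genes together with ERR and PPAR receptors. Its level was 7.70, 11.4, 11.1, 9.92, 11.6 and 10.4 normalized CPM in control replicates 1 to 6, and 19.0, 17.2, 17.6, 22.5, 17.1 and 21.1 in iNICD replicates 1 to 6. All iNICD values exceeded all control values. Mean levels were 10.3 ± 1.44 in controls and 19.1 ± 2.24 in iNICD (SD, n = 6 per group). On the log2 scale the difference was 0.88 (SE 0.11, edgeR adjusted p = 4.51e-04, exact permutation p = 0.00216), and the gene passed with each library left out in turn, between 0.81 and 0.91. The gene lies on chromosome 18 from 61298136 to 61400431.

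*Ppargc1a*, which encodes the related coactivator PGC-1α, did not follow. Its control values were 109, 86.8, 109, 96.3, 84.5 and 105 normalized CPM in replicates 1 to 6 and its iNICD values 94.9, 91.5, 85.5, 83.8, 76.6 and 76.4. Here 3 of 6 iNICD libraries lay below all controls, with a log2 fold change of -0.21 (SE 0.08, edgeR adjusted p = 0.2, exact permutation p = 0.0325). Per length, *Ppargc1a* stood at 14.9 and *Ppargc1b* at 2.59 normalized CPM per kilobase in controls, and at 12.9 and 4.78 in iNICD libraries.

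The nuclear receptors did not pass, with log2 fold changes of 0.08 for *Ppara*, 0.10 for *Ppard*, -0.28 for *Pparg* and -0.03 for *Esrra*, the gene of ERRα. Without control replicate 5, which held 10.3 normalized CPM of *Pparg* against at most 7.08 in the other controls, *Pparg* was at -0.05, *Ppara* at 0.03 and *Esrra* at 0.02. *Pdk4*, which blocks pyruvate oxidation and is a common readout of PPAR activity and fasting, had control values of 338, 194, 325, 513, 2497 and 174 normalized CPM in replicates 1 to 6 and iNICD values of 149, 219, 644, 364, 263 and 173. Control replicate 5 stood far above all other libraries. The log2 fold change of -1.16 (SE 0.65, edgeR adjusted p = 0.382) became -0.03 without that library, and the median of the 8 regulators moved from -0.12 to -0.01. *Ucp3*, a mitochondrial carrier that responds to fatty acids, was at -0.52, with up to 14.3 in controls and up to 15.04 in iNICD libraries and 24 counts in the lowest library.

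Within each group the levels of most pairs of beta-oxidation genes were correlated from library to library. Of the pairs of beta-oxidation genes, 95.8% correlated positively over the 6 controls and 94.2% over the 6 iNICD libraries, which they share. The same shares were 60.7% and 96.4% for storage, 60% and 59.0% for uptake and activation, and 53.6% and 35.7% for the regulators. No such share was taken over all tested genes. Control replicate 2 was the lowest control for 36 of the 51 genes and iNICD replicate 1 the lowest iNICD library for 27, while iNICD replicate 4 was the highest for 24 and control replicate 6 for 20. Among the 5 controls other than replicate 5, replicate 2 was the lowest for 39 genes and replicate 6 the highest for 25. The median gene of the 51 lay 0.41 below the rest of its group on the log2 scale in control replicate 2 and 0.29 below in iNICD replicate 1, where the median of all genes lay within 0.01 of 0. The mean deviation of the 20 beta-oxidation genes ran from -0.40 to 0.28 in controls and from -0.35 to 0.21 in iNICD libraries, so the libraries of 1 group differed by more than the groups did. For the storage genes it ran from -0.35 to 0.18 in controls and from -0.86 to 0.03 in iNICD libraries, with iNICD replicates 1 and 2 the lowest. The SD within groups had a median of 0.26 on the log2 scale for the beta-oxidation genes, 0.35 for the storage genes, 0.25 for uptake and activation and 0.20 for the regulators, against 0.22 over all tested genes. The share of counts on mitochondrial transcripts was 7.52% in control replicate 2, from 8.24% to 9.59% in the other controls and from 9.596% to 11.2% in iNICD libraries, and its part in this pattern was not tested.

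**Figure D4:**
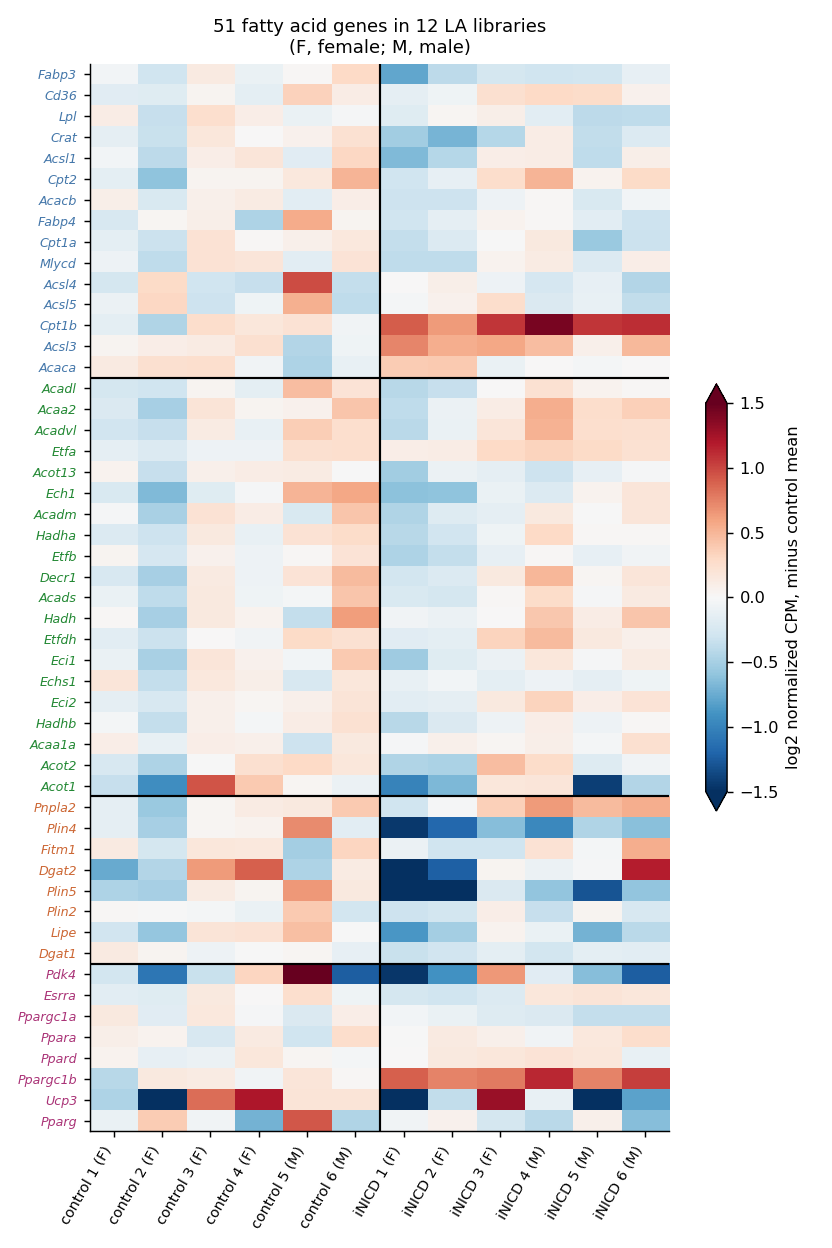
Level of the 51 genes in each library as log2 normalized CPM minus the control mean of the gene, in red above and blue below that mean, with the sex of each mouse given as F or M. The columns of control replicate 2 and of iNICD replicates 1 and 2 are blue over most rows, and the rows of *Cpt1b* and *Ppargc1b* are red in all 6 iNICD libraries.

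The lowest libraries were all from females, so the sexes were compared in 1 fit with the group as a second term, a comparison chosen after the data were seen. None of the 51 genes passed at an adjusted p under 0.05, where 0.118% of all tested genes were higher and 0.17% lower in the 5 male than in the 7 female libraries. At an unadjusted p under 0.05, 20 of the genes were higher in males (7.36% of all tested genes) and 2 lower (6.55%), *Acsl3* and *Acaca*. Of the beta-oxidation genes 13 of 20 were higher at that level, and the median of the 51 genes was 0.22 on the log2 scale, against 0.0058 over all tested genes. With each library left out in turn, 15 to 23 of the 51 genes were higher at that level, against 5.45% to 12.1% of all tested genes. Both the 15 genes and the 12.1% came from the fit without control replicate 6, which left control replicate 5 as the only male control. The adjusted threshold was passed by 1 gene in each of 2 such fits, *Esrra* without control replicate 6 (0.39, edgeR adjusted p = 0.0399) and *Ech1* without iNICD replicate 3 (0.71, edgeR adjusted p = 0.0441). *Ech1* had the lowest p of the 51, with a male over female log2 difference of 0.61 (SE 0.13, edgeR adjusted p = 0.0919). Its mean was 205 normalized CPM in female and 356 in male controls, and 183 and 247 in the iNICD libraries of these sexes. *Acadl* followed with 0.42 (SE 0.10, adjusted p = 0.0949) and *Acadvl* with 0.44 (SE 0.11, adjusted p = 0.127). Because all 51 genes share the same libraries, a few high or low libraries move many of them at once.

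The response to Notch activation was then compared between the sexes by an interaction term. No gene passed at an adjusted p under 0.05, and 501 of all tested genes had an unadjusted p under 0.05. Of the 51 genes *Etfa* was the 1 at that level, and the lowest edgeR adjusted p of any gene was 0.916. For *Cpt1b* the male minus female difference in log2 fold change was 0.22 (SE 0.28), for *Ppargc1b* 0.04 (SE 0.23) and for *Plin4* -0.08 (SE 0.38), so differences of these sizes could not be resolved.

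**Figure D5:**
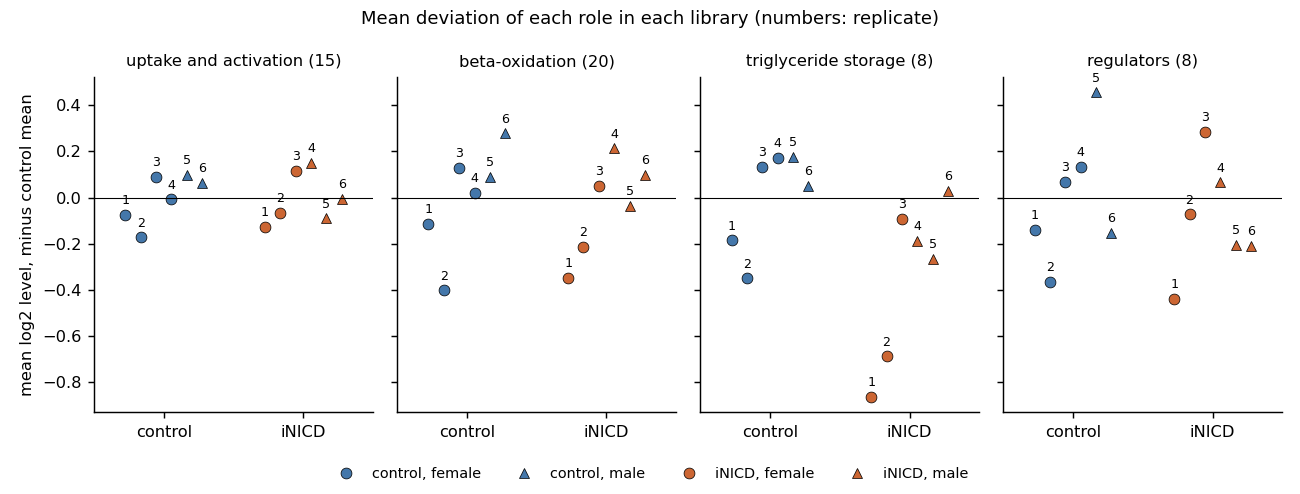
Mean deviation of the genes of each role from their control mean, on the log2 scale, for each library, with the replicate number beside the point and circles for female and triangles for male mice. Control and iNICD libraries overlap in all 4 roles, and iNICD replicates 1 and 2 are the lowest for storage, at -0.86 and -0.69.

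A further 116 genes of fatty acid metabolism were listed by function, and 108 were tested. Of these 4 were higher and 5 lower in iNICD libraries, against the 2.78% and 1.34% of all tested genes given above, with a median log2 fold change of -0.02. Higher were *Acsl6*, an acyl-CoA synthetase, at 0.77 (SE 0.19, edgeR adjusted p = 0.0397), *Acss2*, the cytosolic acetyl-CoA synthetase, at 0.24 (SE 0.05, adjusted p = 0.0224), *Pdk3*, another pyruvate dehydrogenase kinase, at 0.35 (SE 0.08, adjusted p = 0.0334), and *Tfam*, which packages and transcribes mitochondrial DNA, at 0.36 (SE 0.06, adjusted p = 0.00245). Lower were *Acss1*, the mitochondrial acetyl-CoA synthetase, at -0.43 (adjusted p = 0.0329), *Acad12* at -0.81 (adjusted p = 0.0276), *Oxct1*, the enzyme that activates ketone bodies for oxidation, at -0.31 (adjusted p = 0.00918), *Acot7*, a cytosolic thioesterase, at -0.43 (adjusted p = 0.0404), and *Prkab1*, a subunit of AMP-activated kinase, at -0.75 (adjusted p = 0.0129). *Acss1* fell from 224 ± 35.6 to 166 ± 13.6 normalized CPM and *Acss2* rose from 50.1 ± 2.92 to 59.3 ± 2.105 (SD, n = 6 per group). None of the 14 tested peroxisomal oxidation genes and none of the 17 tested other storage genes was called, with 2 and 1 of them lower and 0 and 1 higher at an unadjusted p under 0.05. Without control replicate 5, 5 of the 108 genes were higher and 8 lower, against 486 and 310 of all 13499 genes tested in that fit. With each library left out in turn, *Tfam*, *Oxct1* and *Prkab1* passed in all 12 fits. In these fits 1 to 5 of the 108 genes were higher and 2 to 8 lower, against 252 to 486 and 90 to 310 of all tested genes.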

How the data were processed

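RNA was isolated from flash-frozen LA, ribosomal RNA was removed, and stranded single-end reads were sequenced. The authors deposited raw read counts per gene name, without normalization, and a length in bases per gene name. Per the submitters' processing notes, cutadapt, STAR 2.4.2a, featureCounts of Subread and mm10 were used. The study's methods describe STAR with Subread and GENCODE M15 for the joint analysis of RA and LA, and TopHat2 with HTSeq, without mitochondrial reads, for LA alone. Mitochondrial transcripts have counts in the deposited table, which carries no counter's name. Counting was not stated to use strand, and 14 of the 51 genes overlap an exon on the opposite strand, so reads of such partners cannot be told apart. Ambiguous reads left out lower the count of genes that share exons.

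Group and replicate number were taken from sample titles and sex from descriptions. The descriptions, which name the columns of the table, exchange the numbers of controls 4 and 5, so control replicate 5 here is the male library numbered 4 in its description. The filter required over 1 CPM in 6 or more libraries, and the 12 libraries entered 1 two-sided quasi-likelihood fit (edgeR 4.0.16, R 4.3.3). The chi-square per gene between 2 libraries of a group was 14.2 or more, so none was deposited under 2 names. For single genes, an exact permutation test on mean log2 normalized CPM (prior count of 2) was added. The 95% intervals used the degrees of freedom of the edgeR fit. Positions and exon overlaps are from GENCODE M21 (GRCm38), in which all 51 genes were found and the deposited length equalled the union of exons for 48. Promoters are from RefSeq, where 41 genes matched. DESeq2 1.42.0, limma 3.58.1 and Python 3.11.15 were used for alternatives, counts and tables. The alternatives were 2 other normalizations, 2 other filters, DESeq2, edgeR's exact test, a term for sex, blocks by the replicate number of titles or of descriptions, female or male libraries alone, counts without mitochondrial transcripts and each library left out. Analyses were checked on simulated counts.

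The 51 genes, the gene lists and the tests were chosen with earlier results of these data known. Named with values in every library are the genes called, those with an unadjusted p under 0.05 or without overlap, and the most abundant gene per length of each role; called genes of other lists are named, at most 6 per direction. RA libraries were not analysed here.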

Additional observations from a re-analysis of the deposited data

Results flagged for a closer look

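In 6 of the 102 groups of 6 libraries (51 genes, 2 groups), 1 library lay farther from its neighbours than Dixon's 95% critical value allows, where chance gives about 1 in 20 groups, or 5.1. Control replicate 5 gave 3 of them, with *Pdk4* at 2497 normalized CPM (next 512.5), *Plin4* at 549 (next 349) and *Acsl4* at 71.8 (next 44.4). Control replicate 2 was low for *Acot13* at 92.6 (next 117.8). In iNICD libraries, *Dgat2* was high in replicate 6 at 109 (next 49.4) and *Ucp3* in replicate 3 at 15.04 (next 5.68).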

How the results depend on the processing

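No direction of a called gene reversed. Over 25 alternatives *Cpt1b* and *Ppargc1b* passed in 24, failing with the 2 control and 3 iNICD male libraries alone, where 0 genes of the 51 were higher, and *Plin4* passed in 18. The number lower, 1 as reported, became 3 with DESeq2 (*Plin4*, *Plin5*, *Dgat1*), 2 with the exact test of edgeR (*Plin4*, *Plin5*), 2 with sex as a covariate (*Fabp3*, *Plin4*), 0 in female libraries only, 0 in male libraries only, and 0 to 2 with each library left out. Without control replicate 5 and with sex as a covariate, chosen after seeing the data, 3 were lower (*Fabp3*, *Crat*, *Plin4*). The median log2 fold change of the uptake and activation genes, -0.16 as reported, was 0.012 in female libraries only, and -0.19 to -0.037 with each library left out, the latter without control replicate 5. Of the 108 other pathway genes, 4 higher and 5 lower as reported, 1 to 5 were higher and 2 to 8 lower with each library left out, fits added after seeing the data. Those higher numbered 1 without iNICD replicate 3, 4 or 5 and 2 without control replicate 1, 2 or 4. Those lower numbered 8 without control replicate 2 or 5, 2 without control replicate 1 or 4 or iNICD replicate 1 or 3, and 3 without control replicate 3 or 6 or iNICD replicate 2 or 4. The cause of these shifts was not tested.

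Libraries with the same replicate number deviated together in some pairs only (correlations from -0.15 to 0.37 by title), so the pairing was not established. With the replicate number as a block 2 of the 51 genes were lower (*Plin4*, *Plin5*) and 3 higher, and with the description number 2 lower and 2 higher, while over all genes the calls went from 377 higher and 181 lower to 332 and 136 or to 285 and 136. Over all genes DESeq2 gave 681 and 435, edgeR's exact test 491 and 279, male libraries only 8 and 1, and the omission of each library in turn 252 to 486 and 90 to 310, the highest without control replicate 5. The lowest counts of any library were 19 for *Acot1* and 24 for *Ucp3*, where counting error is widest.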
